A study of Homo sapiens with 6 samples.

Results

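The genes described here encode 8 transcription factors of the hepatocyte lineage, HNF4A, HNF4G, FOXA1, FOXA2, FOXA3, CEBPA, NR5A2 and ONECUT1. They were chosen as a named list, by gene symbol matched to the Ensembl identifiers of the count files. The rule itself uses no values, but the list was chosen with earlier results of these data known. They are 8 of the 60675 counted genes, and all 8 were among the 18075 genes with enough reads to be tested. The comparison asked whether the knockdown of MTR4 changed their expression in a liver cancer cell line.

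Hepatocyte identity is held by a small network of transcription factors that bind the promoters and enhancers of liver genes, and also those of each other. HNF4A and HNF4G are nuclear receptors of the HNF4 family, and HNF4A is a central regulator of lipoprotein, clotting factor and glucose metabolism genes. FOXA1, FOXA2 and FOXA3 are forkhead proteins that open closed chromatin and so act ahead of other factors. CEBPA is a leucine zipper protein of the quiescent, differentiated hepatocyte. NR5A2, also called LRH-1, is a nuclear receptor of bile acid and cholesterol genes, and ONECUT1, also called HNF6, is a cut homeodomain protein of liver and bile duct development.

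RNA-seq was carried out on PLC/PRF5 cells, an established human hepatocellular carcinoma line grown in DMEM with 10% FBS. There were 3 control libraries and 3 MTR4 KD libraries of total RNA, and the labels number the replicates 1 to 3 in each group. MTR4, the product of MTREX, is an RNA helicase that feeds RNA to the nuclear exosome for trimming or decay. The study silenced it with a doxycycline-inducible shRNA from a lentiviral vector and describes the RNA-seq as a comparison of cells before and after induction. The labels say neither whether the control cells carried the shRNA vector nor which cells received doxycycline, so the drug and the knockdown cannot be told apart in these libraries. In cells with an inducible scramble shRNA, the paper found no effect of doxycycline on the glycolytic genes it measured. No library here is labelled as that control. Nothing in the labels says that the replicates were separate cultures, and the p-values below measure only the spread between these libraries, which may be technical.

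The number of reads on genes ran from 60686786 to 72708682 over the 6 libraries. MTREX itself was at 72.2, 87.4 and 74.4 CPM (TMM-scaled counts, the unit of all levels below) in control replicates 1, 2 and 3 and at 44.6, 48.8 and 44.1 CPM in MTR4 KD replicates 1, 2 and 3 (log2 fold change -0.77, adjusted p = 0.00641 in the edgeR test described below). All 10 hepatocyte markers on the list were measured, with a summed level of 23900 to 25348 CPM in the control and 24018 to 25871 CPM in the MTR4 KD libraries. Markers of mesenchymal cells (6 listed, of which 4 were tested) summed to at most 14.6 CPM, and those of blood and endothelial cells (6 listed, of which 2 were tested) to at most 3.83 CPM in any library. The libraries fell into 2 classes by the share of reads without a unique alignment. It was 34.7% to 37.5% in control replicates 1 and 3 and MTR4 KD replicate 3, here called the class with more non-unique reads, and 14.8% to 18.2% in control replicate 2 and MTR4 KD replicates 1 and 2, the class with fewer. Several of the 8 genes differed more between these classes than between the conditions, so each is given in every library, within each class and with the class as a covariate.

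The sequences in front of some of the genes are shown, to set the base composition and known factor words of their promoters beside the levels. RefSeq (GRCh38.p14) gave a window of 250 bases before to 50 after an annotated start for 6 of the 8 genes, all but HNF4G and FOXA2. Capitals mark the words searched for on both strands, which were CAAAGTCCA for HNF4 proteins, TGTTTAC for FOXA proteins, TTGCNNAA for C/EBP proteins, TCAAGGTCA for NR5A2, ATTGATT for ONECUT proteins and TATAAA for a TATA box. The windows are, in order, the upstream start of HNF4A (chr20:44355449-44355748, plus strand), the downstream of the annotated starts of NR5A2 (chr1:200042341-200042640, plus strand), the starts of CEBPA (chr19:33302485-33302784, minus strand) and FOXA3 (chr19:45864076-45864375, plus strand), and that of LINC00261 (chr20:22578593-22578892, minus strand), a noncoding gene beside FOXA2.
HNF4A: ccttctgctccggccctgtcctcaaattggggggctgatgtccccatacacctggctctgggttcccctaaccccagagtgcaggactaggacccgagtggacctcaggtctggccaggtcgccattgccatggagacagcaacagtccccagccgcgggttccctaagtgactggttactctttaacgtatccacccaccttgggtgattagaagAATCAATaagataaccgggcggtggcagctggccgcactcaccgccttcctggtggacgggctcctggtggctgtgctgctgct
NR5A2: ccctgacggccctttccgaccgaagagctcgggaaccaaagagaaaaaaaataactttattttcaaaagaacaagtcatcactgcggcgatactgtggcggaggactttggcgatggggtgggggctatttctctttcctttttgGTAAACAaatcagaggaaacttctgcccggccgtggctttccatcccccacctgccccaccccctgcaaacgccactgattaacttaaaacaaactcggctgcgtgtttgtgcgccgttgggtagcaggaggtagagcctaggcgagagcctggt
CEBPA: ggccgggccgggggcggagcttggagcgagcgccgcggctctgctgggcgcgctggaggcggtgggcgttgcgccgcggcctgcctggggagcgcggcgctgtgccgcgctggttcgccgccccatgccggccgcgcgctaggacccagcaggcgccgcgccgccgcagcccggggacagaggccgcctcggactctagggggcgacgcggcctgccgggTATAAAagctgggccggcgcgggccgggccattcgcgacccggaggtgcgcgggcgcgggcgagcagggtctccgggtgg
FOXA3: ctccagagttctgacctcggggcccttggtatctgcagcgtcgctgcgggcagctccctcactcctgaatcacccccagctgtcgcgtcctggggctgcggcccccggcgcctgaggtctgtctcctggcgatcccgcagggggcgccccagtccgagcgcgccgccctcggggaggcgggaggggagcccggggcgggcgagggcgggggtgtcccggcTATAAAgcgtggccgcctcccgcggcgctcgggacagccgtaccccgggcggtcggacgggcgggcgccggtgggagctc
LINC00261: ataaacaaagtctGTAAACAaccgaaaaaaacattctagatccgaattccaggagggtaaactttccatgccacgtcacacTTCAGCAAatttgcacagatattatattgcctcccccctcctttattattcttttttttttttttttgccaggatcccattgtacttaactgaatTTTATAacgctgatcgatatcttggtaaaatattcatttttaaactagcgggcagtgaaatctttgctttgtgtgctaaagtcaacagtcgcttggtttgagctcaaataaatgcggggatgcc

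The CEBPA window held 80.7% G and C bases and the FOXA3 window 76.3%, against a median of 58.7% over the 35116 RefSeq windows, and 1.81% of all windows held more than that of CEBPA. The ONECUT1 window held 75% and the FOXA1 window 69.3%. Every window shown held a word that was searched for, while the ONECUT1 and FOXA1 windows and the HNF4A window not shown held none. The NR5A2 windows held 52.7% in the one shown and 36.7% in the other, and the HNF4A windows 60% in the one shown and 57.7% in the other. CEBPA and FOXA3 had a TATA word 30 bases before the start, and the NR5A2 window not shown had one 201 bases before, and this word was found in 11.5% of all windows. The HNF4A window shown had an ONECUT word 34 bases before its start, found in 2.18% of all windows. The NR5A2 window shown had a FOXA word 105 bases before its start, found in 3.42% of all windows. LINC00261 had a FOXA word 237 bases, a C/EBP word 169 bases and a TATA word 74 bases before its start, and the C/EBP word occurs in 10.5% of all windows. The HNF4 and NR5A2 words, which occur in 0.384% and 0.353% of all windows, were in none of the windows of the 8 genes or of the noncoding genes beside them. A match of letters is not a measured binding site.

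Per kilobase of annotated exon, the 8 genes spanned about an order of magnitude. FOXA3 (33.4 to 63.1 CPM per kilobase over the 6 libraries) and HNF4A (37.5 to 42.8) were the most abundant, and their ranges overlapped. FOXA2 followed at 15.1 to 22.5 CPM per kilobase, apart from both HNF4A above and FOXA1 below. FOXA1 (9.63 to 12.4), ONECUT1 (8.56 to 10.8) and NR5A2 (8.02 to 10.9 CPM per kilobase) overlapped each other. CEBPA covered 2.88 to 15.8 CPM per kilobase, a range that takes in the last 3 as well as HNF4G at 5.74 to 6.96. The exon lengths add up all annotated isoforms, so a gene with a long rarely used exon is placed too low.

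**Figure D1:**
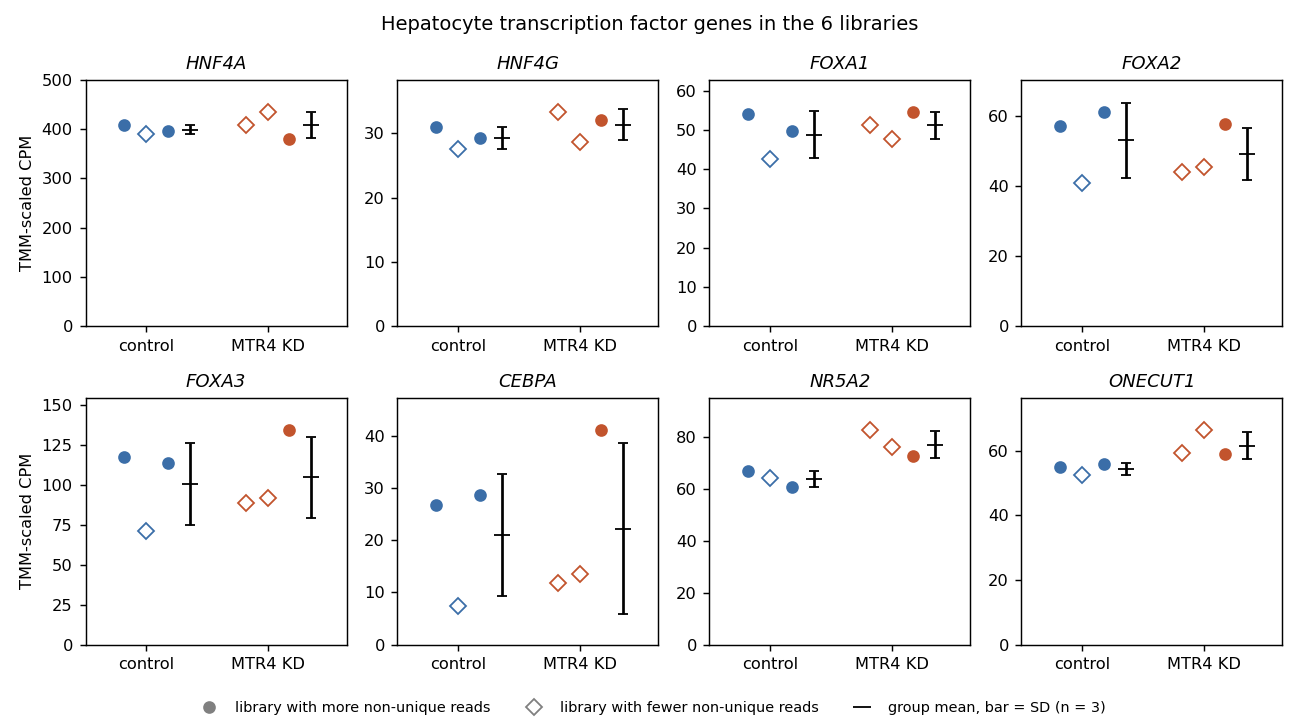
Normalized expression (TMM-scaled CPM, linear axes from 0) of the 8 hepatocyte transcription factor genes in the 3 control and 3 MTR4 KD libraries, with the mean and SD beside each group. Filled circles are libraries with more and open diamonds libraries with fewer non-unique reads; for CEBPA the filled circles (26.8 to 41.1 CPM) lie above all open diamonds (7.49 to 13.6 CPM) in both groups.

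In the test with condition as the only term (edgeR's quasi-likelihood test with Benjamini-Hochberg adjustment over all tested genes), 0 of the 8 genes passed an adjusted p-value of 0.05, which 3.6% of all tested genes did (1.48% higher and 2.12% lower in MTR4 KD). At an unadjusted p-value under 0.05 there were 2, NR5A2 and ONECUT1. The share of all tested genes at that unadjusted threshold was not computed, here or for the lists below. DESeq2's Wald test called 1, NR5A2 (adjusted p = 0.0386), where it called 8.36% of the 16301 genes it gave an adjusted p-value, and limma-voom called 0. The 8 log2 fold changes of MTR4 KD over control ran from -0.12 to 0.27 with a median of 0.08. NR5A2 and ONECUT1 were also the genes whose groups did not overlap, both higher in MTR4 KD, as 12.1% of all tested genes were. For such a gene the exact permutation test gives p = 0.1, the smallest that 3 against 3 libraries allow.

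HNF4A (ENSG00000101076, chr20:44355699-44434596 in RefSeq on GRCh38.p14) was at 409.6, 391 and 397 CPM in control replicates 1, 2 and 3 and at 409.0, 435 and 381 CPM in MTR4 KD replicates 1, 2 and 3. Both the highest and the lowest value were from MTR4 KD, and the groups overlapped. The log2 fold change was 0.03 (95% interval -0.12 to 0.19, adjusted p = 0.837). It was -0.08 within the class with more and 0.11 within the class with fewer non-unique reads. Fitted with the class, it was 0.01 (95% interval -0.10 to 0.12). HNF4A overlaps antisense transcripts, and the strand setting of the counting is not given in the sources used here, so its reads and theirs cannot be told apart in full.

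HNF4G (ENSG00000164749, chr8:75407649-75566834), the paralog of HNF4A, was at 31.1, 27.5 and 29.4 CPM in the control and at 33.4, 28.7 and 32.1 CPM in the MTR4 KD replicates. Within each class every MTR4 KD library was above every control library, but the groups overlapped. The log2 fold change was 0.10 (95% interval -0.10 to 0.30, adjusted p = 0.589) and 0.13 with the class as a covariate (adjusted p = 0.206). Per exon length, HNF4G made up 13.5% ± 0.441 (SD, n = 3) of the sum of both paralogs in the control and 14.04% ± 1.57 (SD, n = 3) in the MTR4 KD libraries, with an exact permutation p = 0.6 (two-sided). The balance of the paralogs thus differed by less than the spread between libraries.

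FOXA1 (ENSG00000129514, chr14:37589552-37595249) was at 54.2, 42.5 and 49.8 CPM in the control and at 51.4, 47.7 and 54.6 CPM in the MTR4 KD replicates. The groups overlapped, with control replicate 2 the lowest, while within each class every MTR4 KD library was above every control library. The log2 fold change was 0.07 (95% interval -0.17 to 0.31, adjusted p = 0.769), and with the class as a covariate it was 0.15 (adjusted p = 0.0968). FOXA2 (ENSG00000125798, chr20:22580998-22585490) was at 57.3, 41.0 and 61.3 CPM in the control and at 44.2, 45.4 and 57.7 CPM in the MTR4 KD replicates. Both groups held high values in the libraries with more non-unique reads and low values in the others. Its log2 fold change was -0.12 (95% interval -0.51 to 0.28, adjusted p = 0.766) and turned to 0.04 with the class as a covariate (adjusted p = 0.637).

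FOXA3 (ENSG00000170608, chr19:45864326-45873797) was at 117, 71.1 and 113 CPM in the control and at 88.5, 91.6 and 134 CPM in the MTR4 KD replicates. The groups overlapped, but within each class every MTR4 KD library was above every control library. The log2 difference was 0.22 within the class with more and 0.34 within the class with fewer non-unique reads. With condition alone the log2 fold change was 0.06 (95% interval -0.48 to 0.59, adjusted p = 0.917). With the class as a covariate it was 0.28 (95% interval 0.18 to 0.38, adjusted p = 0.000757). That call held without control replicate 1 or 3 and without MTR4 KD replicate 1 or 2. Without control replicate 2, that fit set MTR4 KD replicate 3 alone against control replicates 1 and 3 (log2 fold change 0.22). Without MTR4 KD replicate 3, it set control replicate 2 alone against MTR4 KD replicates 1 and 2 (log2 fold change 0.35).

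The 3 FOXA paralogs were also set against each other within each library, per exon length. FOXA3 made up 60.3% ± 2.54 of their sum in the control libraries (SD, n = 3) and 62.1% ± 2.84 after the knockdown (SD, n = 3). The share of FOXA2 was 23.8%, 25.9% and 25.8% in the control and 23.4%, 23.7% and 21.9% in the MTR4 KD replicates. This share was lower in every MTR4 KD library, by 2.88 percentage points within the class with more and 2.42 within the class with fewer non-unique reads, with an exact permutation p = 0.1 (two-sided), which is the smallest possible. The share of FOXA1 was 14.5% ± 1.88 in the control libraries (SD, n = 3) and 14.9% ± 2.00 after the knockdown (SD, n = 3), with an exact p = 0.8. After Benjamini-Hochberg adjustment over the 8 shares and log2 ratios computed for these genes, the lowest of these exact permutation p-values was 0.4.

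CEBPA (ENSG00000245848, chr19:33299934-33302534) was at 26.8, 7.49 and 28.6 CPM in the control and at 11.9, 13.6 and 41.1 CPM in the MTR4 KD replicates. The 3 libraries with more non-unique reads held the 3 highest values and the 3 libraries with fewer the lowest, so the groups overlapped widely. Within each class every MTR4 KD library was above every control library, by a log2 difference of 0.57 in the class with more and 0.77 in the class with fewer non-unique reads. With condition alone the log2 fold change was 0.08 (95% interval -1.35 to 1.51, adjusted p = 0.957), an interval that reaches past 1 on the log2 scale in both directions. Once the class was a covariate it was 0.65 (95% interval 0.49 to 0.82, adjusted p = 5.44e-05). With each library left out in turn from that fit, it ran from 0.57 to 0.78. The call held without control replicate 1 or 3 and without MTR4 KD replicate 1 or 2. As for FOXA3, the fits without control replicate 2 (0.57) and without MTR4 KD replicate 3 (0.78) rested on 1 library of a condition. Without the class term, leaving out control replicate 2 turned the log2 fold change to -0.33 and leaving out MTR4 KD replicate 3 turned it to -0.72.

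NR5A2 (ENSG00000116833, chr1:200027710-200177415) was at 66.8, 64.0 and 60.5 CPM in the control and at 82.4, 75.9 and 72.4 CPM in the MTR4 KD replicates. Every MTR4 KD library was above every control library. The log2 fold change was 0.27 (95% interval 0.10 to 0.44, adjusted p = 0.104), and it was 0.19 within the class with more and 0.31 within the class with fewer non-unique reads. Fitted with the class, it was 0.25 (95% interval 0.13 to 0.37, adjusted p = 0.0069). That call was lost without control replicate 2 (log2 fold change 0.18, adjusted p = 0.0892) and held without each of the other 5 libraries.

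ONECUT1 (ENSG00000169856, chr15:52755053-52790336) was at 54.9, 52.3 and 55.8 CPM in the control and at 59.3, 66.3 and 59.0 CPM in the MTR4 KD replicates. The groups did not overlap, although the lowest MTR4 KD and the highest control library were close. The log2 fold change was 0.18 (95% interval 0.02 to 0.34, adjusted p = 0.223). Adding the class left it at 0.18 (95% interval 0.05 to 0.30, adjusted p = 0.0448). This call was lost without control replicate 1 or 3 and without MTR4 KD replicate 1 or 2 (adjusted p of 0.0681 to 0.138). The fits without control replicate 2 (log2 fold change 0.09) and without MTR4 KD replicate 3 (0.28) rested on 1 library of a condition.

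Read together, the fit with the library class called 4 of the 8 genes, CEBPA, FOXA3, NR5A2 and ONECUT1, all higher in MTR4 KD, where 20.2% of all tested genes were called, 9.43% higher and 10.8% lower. Their log2 fold changes lay between 0.18 and 0.65, so none of them doubled. HNF4A, HNF4G, FOXA1 and FOXA2 were not called in that fit. Of the 8 genes, 6 had a higher mean in MTR4 KD within both classes, and HNF4A and FOXA2 had opposite signs in the 2 classes. The share of all tested genes with a higher mean in both classes was not computed, so this count has no background beside it. No test of the list as a whole was made.

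**Figure D2:**
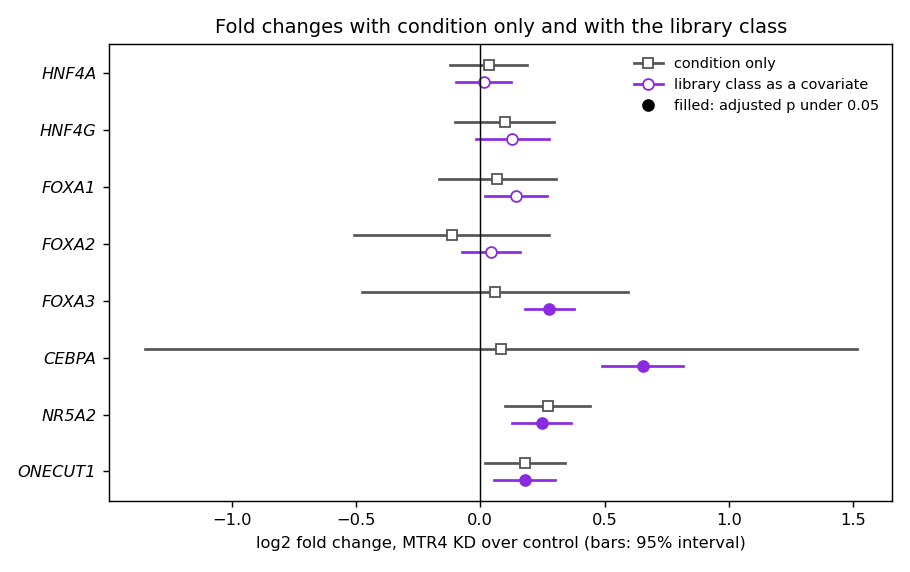
Log2 fold change of MTR4 KD over control with its 95% interval for each of the 8 genes, from the fit with condition only (grey squares) and from the fit with the library class as a covariate (purple circles); filled symbols have an adjusted p-value under 0.05. The interval of CEBPA shrinks from -1.35 to 1.51 with condition only to 0.49 to 0.82 with the class, and only circles of FOXA3, CEBPA, NR5A2 and ONECUT1 are filled.

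The difference between the library classes was itself uneven over the 8 genes. The mean log2 difference of the class with more over the class with fewer non-unique reads, taken within each condition, was 1.79 for CEBPA, and only 24 of 12744 genes with a mean count of at least 100 had a higher one. It was 0.64 for FOXA3, 0.45 for FOXA2 and 0.22 for FOXA1. HNF4G (0.09), ONECUT1 (-0.0040), HNF4A (-0.05) and NR5A2 (-0.07) were near 0. The GC content of the longest annotated transcript was 65.9% for CEBPA, 60.1% for FOXA3 and 59.1% for FOXA2, against 35.9% for HNF4G and 40.1% for NR5A2. HNF4A, with a GC content of 54.9%, had no such difference.

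Over the 12744 tested genes with a known GC content and a mean count of at least 100, the median log2 difference between the classes was 0.59 above 65% GC, 0.30 from 60% to 65% and between -0.10 and -0.07 in the bins under 50%. CEBPA lay far above the upper quartile of its bin, at 0.88, and FOXA3 above that of its own, at 0.48. FOXA2 (upper quartile 0.27), FOXA1 (0.12, at a GC content of 50.4%) and HNF4G (0.03) also lay above the upper quartiles of their bins. HNF4A, NR5A2 and ONECUT1 lay between the quartiles of theirs. The class was not a label of the study, and what set the libraries apart was not tested. Since 1 of the 3 control and 2 of the 3 MTR4 KD libraries belong to the class with fewer non-unique reads, the class and the condition are partly mixed, and each class has 1 library in one of its groups. A fit with the class that left out control replicate 2 or MTR4 KD replicate 3 therefore compared the conditions within the other class alone. Such a fit rested on 1 library of a condition, for every gene named here.

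**Figure D3:**
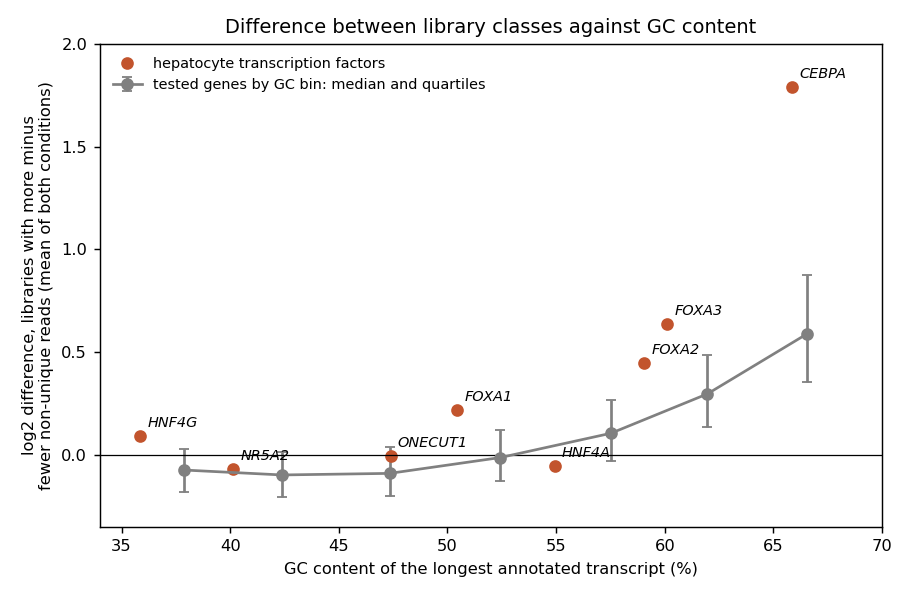
Mean log2 difference of the class with more over the class with fewer non-unique reads against the GC content (%) of the longest annotated transcript. Orange points are the 8 genes and grey points the medians of all tested genes with a mean count of at least 100 in bins of GC content, with bars from the lower to the upper quartile; CEBPA, at 65.9% GC, stands at 1.79, above the quartile of its bin at 0.88.

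Over the 6 libraries, the genes whose log2 CPM ran most like that of HNF4A, among 11668 protein-coding genes, were HIVEP1 (Pearson r = 0.95), CDC25B (r = 0.95) and CLEC16A (r = 0.95). HNF4A varied little, and these correlations are over 6 libraries that share the split between the classes and are given as a description.

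Other factors of the same liver network were listed as well, 28 in all, of which 27 were tested. With condition alone 1 of them passed, where 3.6% of all tested genes did. It was TBX3, a T-box repressor of liver development, which fell. It was at 39.5, 36.0 and 39.0 CPM in the control and at 29.5, 25.4 and 28.3 CPM in the MTR4 KD replicates, and its log2 fold change was -0.46 (adjusted p = 0.0276). The adjusted p-value rose to between 0.0987 and 0.133 without control replicate 1, control replicate 3, MTR4 KD replicate 1 or MTR4 KD replicate 2. The median log2 fold change of the list was -0.06, and DESeq2 called 4 of its genes, where it called 8.36% of all genes. With the library class as a covariate 14 passed, 5 higher and 9 lower, where 9.43% of all tested genes were called higher and 10.8% lower, and the median was 0.02. The 5 called higher, named after their values were seen, were RXRA, PPARA, ATF5, KLF15 and NR1I2. Their log2 fold changes in that fit ran from 0.22 for PPARA to 0.93 for NR1I2, which was at most at 1.38 CPM in any library.

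Family partners and a repressor of the 8 genes, CEBPB, ONECUT2 and NR0B2, were called lower in MTR4 KD in the fit with the class. CEBPB, the C/EBP protein of acute phase and stress responses, was at 70.3, 33.6 and 73.1 CPM in the control and at 29.0, 27.3 and 56.9 CPM in the MTR4 KD replicates. Its log2 difference between the classes was 1.09 in the control and 1.02 in the MTR4 KD libraries, against 1.89 and 1.69 for CEBPA. The log2 fold change of CEBPB was -0.64 with condition alone (adjusted p = 0.406) and -0.29 with the class (adjusted p = 0.0013). The latter ran from -0.33 to -0.24 with each library left out in turn. Of the other C/EBP genes listed, named after their values were seen, CEBPD was also called lower with the class (log2 fold change -0.47, adjusted p = 0.000326). CEBPG was not called (-0.03, adjusted p = 0.666). ONECUT2, the paralog of ONECUT1, was at 42.0, 49.0 and 40.3 CPM in the control and at 41.2, 43.8 and 34.2 CPM in the MTR4 KD replicates. Its log2 fold change was -0.14 with condition alone (adjusted p = 0.572) and -0.23 with the class (adjusted p = 0.0068). The latter call held without control replicate 1 or 3 and without MTR4 KD replicate 1 or 2. The fits without control replicate 2 (-0.27) and without MTR4 KD replicate 3 (-0.19) rested on 1 library of a condition. NR0B2, also called SHP, the repressor of NR5A2 and HNF4A, was at 6.69 to 10.7 CPM in the control and at 5.25 to 7.06 CPM in the MTR4 KD libraries, which gave a log2 fold change of -0.52 with condition alone (adjusted p = 0.206) and -0.37 with the class (adjusted p = 0.0306). That call held without control replicate 3 or MTR4 KD replicate 2 and was lost without control replicate 1 or MTR4 KD replicate 1. The fits of NR0B2 without control replicate 2 or MTR4 KD replicate 3 rested on 1 library of a condition.

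Other regulators of the network were at a wide range of levels. PROX1, a corepressor of HNF4A and NR5A2, was at 54.8 to 65.4 CPM in the control and at 48.6 to 51.6 CPM in the MTR4 KD libraries, and gave log2 fold changes of -0.26 with condition alone (adjusted p = 0.138) and -0.27 with the class (adjusted p = 0.00876), a call lost without MTR4 KD replicate 3 (adjusted p = 0.0825). GATA4, a zinc finger partner of the FOXA proteins, was at 95.01 to 115 CPM in the control and at 109 to 116 CPM in the MTR4 KD libraries (log2 fold change 0.09, adjusted p = 0.603). NR1H4, the bile acid receptor FXR, stayed under 1 CPM in every library, at most 0.981, and GATA6 at or under 0.481 CPM.

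The genes known to be driven by the 8 factors were taken from textbook lists, 39 in all, of which 33 were tested. With condition alone 10 passed, 8 higher and 2 lower in MTR4 KD, against the 3.6% of all tested genes. The log2 fold changes of the 33 ran from -1.53 to 1.98 with a median of 0.02, and 18 of them had an unadjusted p-value under 0.05. No share of all tested genes at that unadjusted threshold was computed to set beside this count. With the class as a covariate 18 passed, 11 higher and 7 lower, where 20.2% of all tested genes passed. The lists share members, and a gene on several of them is counted on each below. Beside the counts of each list stand the shares of all tested genes. These were 1.48% higher and 2.12% lower with condition alone, and 9.43% higher and 10.8% lower with the class. The 6 genes left out by the filter on low counts include CYP7A1, the rate-limiting enzyme of bile acid synthesis and a target of NR5A2, with at most 0.0326 CPM, named here after its values were seen.

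Of 15 tested HNF4A targets, 4 rose and 1 fell, and with the class as a covariate 7 were called higher and 1 lower. APOA1, the main protein of high-density lipoprotein, was at 546, 515 and 501 CPM in the control and at 706, 749 and 781 CPM in the MTR4 KD replicates (log2 fold change 0.52, adjusted p = 0.00921). MTTP, which loads lipid onto APOB, was at 96.1, 102 and 97.1 CPM in the control and at 78.7, 75.6 and 73.5 CPM in the MTR4 KD replicates (log2 fold change -0.38, adjusted p = 0.0191). These 2 lipoprotein genes thus moved in opposite directions, with no overlap of the groups in either. OTC, an enzyme of the urea cycle, rose from 13.9 to 16.0 CPM in the control to 26.1 to 26.6 CPM in the MTR4 KD libraries (log2 fold change 0.79, adjusted p = 0.0034). G6PC1, which releases free glucose, rose from 202 to 213 CPM to 383 to 420.1 CPM (log2 fold change 0.96, adjusted p = 0.000588). TTR, a carrier of thyroid hormone, was at 16.0, 16.1 and 14.7 CPM in the control and at 24.9, 29.2 and 31.8 CPM in the MTR4 KD replicates (log2 fold change 0.88, adjusted p = 0.00693).

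Of 8 tested FOXA targets, TTR and ALB rose and IGFBP1 fell, and with the class 2 were called higher and 1 lower. ALB, serum albumin, was at 739.8, 761 and 742 CPM in the control and at 915, 953 and 869 CPM in the MTR4 KD replicates (log2 fold change 0.29, adjusted p = 0.048). IGFBP1, a secreted binding protein for insulin-like growth factors, was at 595, 420.03 and 594 CPM in the control and at 156, 152 and 249.9 CPM in the MTR4 KD replicates. Its fall, a log2 fold change of -1.53 (adjusted p = 0.0148), was the only one past 2-fold on this list. Of 14 tested CEBPA targets 6 rose and 0 fell, which were ALB, TTR, G6PC1 and the alcohol dehydrogenase genes ADH1A, ADH1B and ADH1C, while with the class 6 were called higher and 1 lower. The log2 fold changes of the ADH1 genes were 1.47, 1.98 and 1.12, and since these are near-identical copies, how reads were split among them is uncertain.

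Of 7 tested NR5A2 targets 1 rose, APOA1, and 0 fell, with a median log2 fold change of -0.12. With the class 5 of these 7 were called, 2 higher and 3 lower, in a fit that called 20.2% of all tested genes. NR0B2 was among those called lower. Of 6 tested ONECUT1 targets 2 rose, TTR and G6PC1, and with the class 2 were called higher and 1 lower. Among the 10 genes that passed, the call was lost in some of the fits that left out 1 library. It held in all 6 for G6PC1, OTC, ADH1A, ADH1B and ADH1C, in 4 for APOA1, in 3 for TTR, in 2 for MTTP and IGFBP1 and in 1 for ALB, whose adjusted p-value ran up to 0.215. In the fit with the class as a covariate all 10 were called without control replicate 1 or 3 and without MTR4 KD replicate 1 or 2. The fits without control replicate 2 or MTR4 KD replicate 3 rested on 1 library of a condition.

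**Figure D4:**
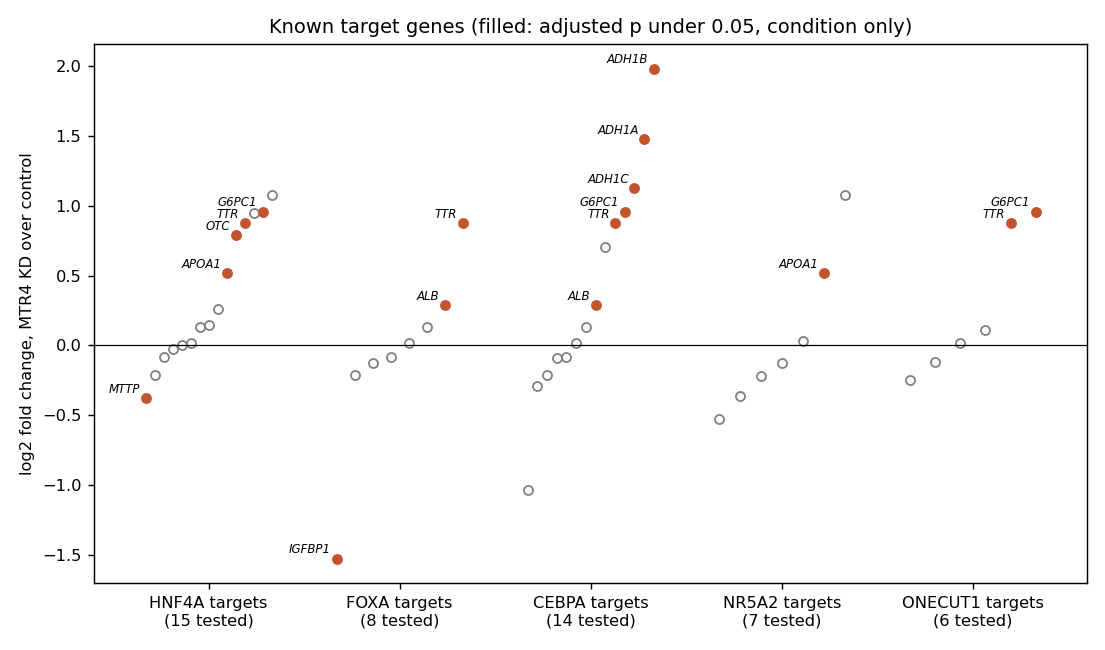
Log2 fold change of MTR4 KD over control (condition only) for the tested target genes of HNF4A, of the FOXA proteins, of CEBPA, NR5A2 and ONECUT1, each point a gene and some genes shown in several columns. Filled points passed an adjusted p-value of 0.05 and are named; they run from -1.53 for IGFBP1 to 1.98 for ADH1B, and no CEBPA target that fell is filled.

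Of the 10 hepatocyte markers, 4 rose and 0 fell with condition alone, where 1.48% of all tested genes were called higher and 2.12% lower. They were TTR, APOA1, ALB and APOH, the last an abundant plasma glycoprotein at 146 to 163 CPM in the control and 201 to 222 CPM in the MTR4 KD libraries (log2 fold change 0.45, adjusted p = 0.0173). Without control replicate 3 or MTR4 KD replicate 2, 0 of the 10 passed. Within both classes 5 of the 10 were higher and 4 lower, and the share of all tested genes was not computed for this count. With the class as a covariate 5 were called higher and 1 lower, where 9.43% of all tested genes were called higher and 10.8% lower. The one called lower was AHSG, a plasma glycoprotein named here after its values were seen, at 53.3, 47.2 and 32.3 CPM in the control and 36.7, 35.5 and 26.0 CPM in the MTR4 KD replicates (log2 fold change -0.43 with condition alone, adjusted p = 0.307, and -0.55 with the class, adjusted p = 0.0164). Of the markers of bile duct and progenitor cells, 9 listed and 7 tested, 1 passed, KRT19, a keratin of bile duct cells. It was at 1.02, 0.691 and 0.978 CPM in the control and at 0.196, 0.0449 and 0.179 CPM in the MTR4 KD replicates (log2 fold change -2.67, adjusted p = 0.0318), and it passed in only 1 of the 6 fits that left out a library, the one without control replicate 2. With the class 3 of the 7 passed, where 20.2% of all tested genes did. They were KRT19 and SOX9, both lower, and CFTR, higher, the last 2 named after their values were seen. SOX9, a factor of bile duct progenitors, had a log2 fold change of -0.67 with condition alone (adjusted p = 0.131) and -0.49 with the class (adjusted p = 0.000503), and CFTR, a chloride channel, 0.86 (adjusted p = 0.093) and 0.84 (adjusted p = 0.0222). The summed level of this list was 109 to 125 CPM in the control and 107 to 112 CPM in the MTR4 KD libraries. Their part in the values of the 8 genes was not tested.

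MTR4 serves the decay of noncoding nuclear RNA, so the noncoding genes that overlap one of the 8 genes or lie within 5000 bases of it were listed from the annotation. There were 15, beside HNF4A, FOXA2, CEBPA and NR5A2, of which 5 had enough reads to be tested and 4 had no read in any library. LINC00261, a long noncoding RNA of the definitive endoderm, starts 2356 bases past the end of FOXA2 on the same strand. It was at 77.9, 78.5 and 72.4 CPM in the control and at 107, 108 and 109 CPM in the MTR4 KD replicates. The groups were far apart, with a log2 fold change of 0.50 (95% interval 0.36 to 0.64, adjusted p = 0.00662), and it was the only one of the 5 that passed with condition alone. The log2 difference was 0.53 within the class with more and 0.45 within the class with fewer non-unique reads. The adjusted p-value was 0.0541 without MTR4 KD replicate 2 and under 0.05 without each of the other 5 libraries.

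FOXA2 itself was called in neither fit. The ratio of LINC00261 to FOXA2 counts was 1.36, 1.91 and 1.18 in the control and 2.43, 2.37 and 1.88 in the MTR4 KD replicates. The groups overlapped through control replicate 2, and the exact permutation test gave p = 0.2 (two-sided, adjusted p = 0.533 over the 8 shares and log2 ratios). Among libraries with more non-unique reads the ratio was higher by 0.612 in MTR4 KD, and among those with fewer by 0.487.

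CEBPA-DT, which is transcribed away from CEBPA on the opposite strand and lies 323 bases from it in the GENCODE annotation, was at 8.53, 7.47 and 9.62 CPM in the control and at 8.75, 8.71 and 11.6 CPM in the MTR4 KD replicates. It was highest in the same library as CEBPA, MTR4 KD replicate 3. Its log2 fold change was 0.18 (adjusted p = 0.568) and 0.29 with the class as a covariate (adjusted p = 0.0302). The latter call held without control replicate 3 and was lost without control replicate 1, MTR4 KD replicate 1 or MTR4 KD replicate 2. The fits of CEBPA-DT without control replicate 2 or MTR4 KD replicate 3 rested on 1 library of a condition. HNF4A-AS1, antisense within HNF4A, was at 0.568, 0.470 and 0.564 CPM in the control and at 0.994, 0.599 and 0.538 CPM in the MTR4 KD replicates, with overlapping groups (log2 fold change 0.41, adjusted p = 0.534). The miRNA genes AL132772.1 and MIR3646 inside HNF4A, whose reads cannot be told from those of HNF4A introns, had log2 fold changes of 0.01 (adjusted p = 0.977) and 0.25 (adjusted p = 0.823).

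The other 10 neighbours were below the filter. R3HDML-AS1 had 0.0324 to 0.0967 CPM in the control and 0.0979 to 0.165 CPM in the MTR4 KD libraries, and ENSG00000233376 at most 0.138 CPM. LNCNEF, on the other side of FOXA2, had reads in 1 library only. ENSG00000267130, ENSG00000229220 and RNU6-570P stayed at or under 0.166 CPM, and LINC01620, ENSG00000267580, ENSG00000267727 and AC096633.1 had no read. None of these 10 was tested.

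**Figure D5:**
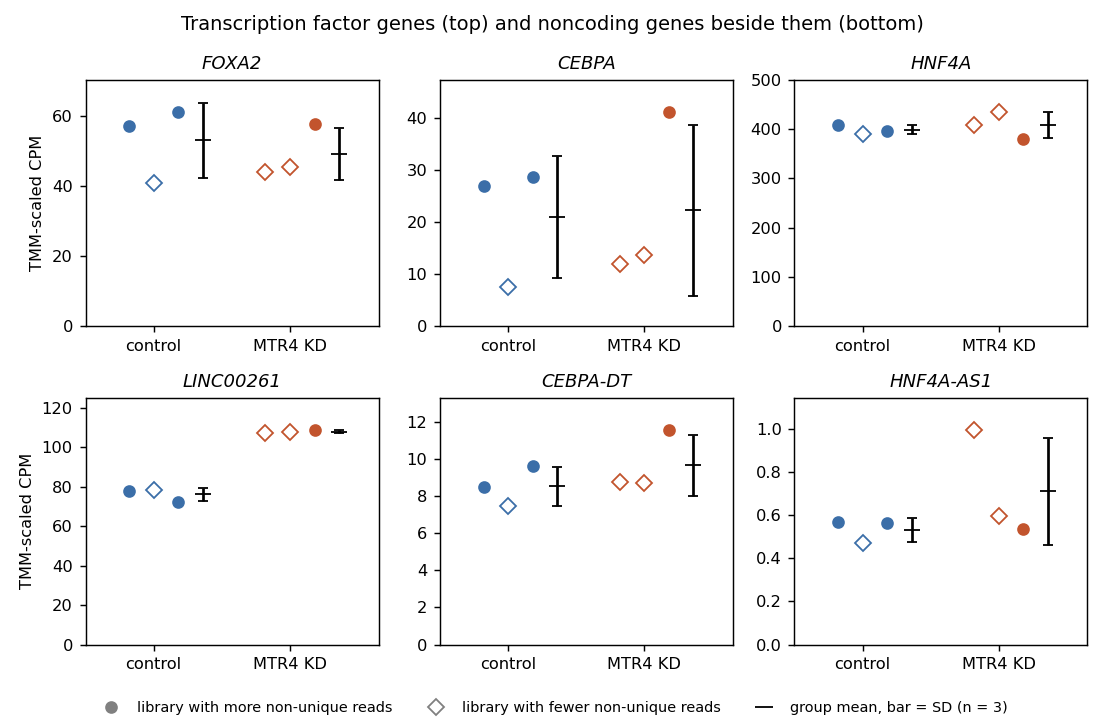
Normalized expression (TMM-scaled CPM, linear axes from 0) of FOXA2, CEBPA and HNF4A in the top row and of a noncoding gene beside each, LINC00261, CEBPA-DT and HNF4A-AS1, in the bottom row, in the 6 libraries with the mean and SD beside each group. LINC00261 is at 72.4 to 78.5 CPM in the control and 107 to 109 CPM in the MTR4 KD libraries, while the groups of the other 5 genes overlap.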

How the data were processed

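RNA-seq of PLC/PRF5 cells gave 3 control and 3 MTR4 KD libraries, grouped by the sample labels. The deposited tables, 1 per library, hold the authors' unnormalized count for each Ensembl gene, with the reads not assigned to a gene in separate entries (ambiguous reads were 5.89% to 8.29% of all entries), which were kept out of library sizes and tests. The submitters' processing notes name HISAT2 2.1.0, HTSeq and DESeq2 and the GRCh38 build, while the strand setting of the counting is not given in the sources used here.

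Low counts were filtered by filterByExpr (minimum count 10), libraries were scaled by TMM and the groups were compared with the quasi-likelihood test (R 4.3.3, edgeR 4.0.16), with condition as the only term. Genes were called at an adjusted p-value (Benjamini-Hochberg over 18075 tested genes) under 0.05. DESeq2 1.42.0 and limma 3.58.1 served as alternatives, as did other scalings and filters, thinned counts, the replicate number as a block, each library left out, and the library class (over 30% of reads not uniquely aligned, or not) as a covariate. The class covariate with each library left out was added after the data were seen. Intervals are at 95%. Counts of single members lay between 542 and 29085 reads per library, so counting error was small beside the spread between libraries. Python 3.11.15 with pandas 2.3.3, scipy 1.17.1 and matplotlib 3.10.9 made tables, exact permutation tests and plots. The fit was tested on simulated data. Exon lengths, GC content and neighbouring genes came from GENCODE gene models on GRCh37 coordinates (56959 of 60675 counted genes matched), and positions and promoters from RefSeq on GRCh38.p14. CD24 and PECAM1 of the marker lists were not matched in it and were not analysed here.

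The 8 genes and the other lists were chosen with earlier results of these data known, and the target and network lists are textbook knowledge. The genes named are the 8 genes, MTREX, every noncoding neighbour, of each other list up to 5 per direction that passed (or, with none, the 2 of the highest mean count), 7 network factors whatever their values (ONECUT2, CEBPB, GATA4, GATA6, PROX1, NR1H4 and NR0B2), and the 3 genes most like each called member and HNF4A. CYP7A1, AHSG, SOX9 and CFTR are named beyond that rule, and the values of 2 genes that the rule covers are not reported here.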

Additional observations from a re-analysis of the deposited data

How the results depend on the processing

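With condition as the only term, 650 of all tested genes were called. DESeq2's Wald test called 1363, the fit with the library class 3649, the fits without 1 library 137 to 803, and those with the class and without 1 library 2409 to 2947. For the 8 factors the count was 0, against 1 by DESeq2, 4 with the class, 0 without any 1 library and 2 to 5 with the class and without 1 library. For the network factors it was 1, against 4 by DESeq2, 14 with the class, 0 to 1 without 1 library and 9 to 12 with the class besides. For the target genes it was 10, against 18 with the class, 5 to 10 without 1 library and 12 to 16 with the class besides. For the hepatocyte markers it was 4, against 0 to 4 without 1 library and 6 in every fit with the class besides. For the noncoding neighbours it was 1, against 2 with the class, 0 to 1 without 1 library and 1 to 2 with the class besides. What sets the class apart was not tested.

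The same-numbered control and MTR4 KD libraries deviated from their group means with correlations across genes of -0.49, 0.57 and 0.59. Not every library correlated best with its own number. Pairs from the same class had correlations of 0.57 to 0.61 and pairs from different classes -0.71 to -0.47. The correlations thus followed the class, and whether equal numbers share anything beyond it was not tested. With the replicate number as a block, 857 genes were called and 0 of the 8 factors (NR5A2 at adjusted p = 0.0531). Each class holds only 1 library of one condition, and 3 libraries per group cannot give an exact p-value under 0.1. The fits with the class and without control replicate 2 or MTR4 KD replicate 3 therefore rested on 1 library of a condition.

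A few weak log2 fold changes turned sign. With the class as a covariate, FOXA2 went to 0.043 and AL132772.1 to -0.010. Over all fits that left out 1 library, with or without the class, the ranges were -0.082 to 0.12 for HNF4A, -0.027 to 0.23 for FOXA1, -0.28 to 0.14 for FOXA2, -0.16 to 0.35 for FOXA3, -0.72 to 0.78 for CEBPA, -0.68 to 0.015 for GATA6, -0.74 to 0.077 for NR1H4, -0.74 to 0.57 for COL1A1, -0.059 to 0.26 for PDGFRB, -0.073 to 0.77 for HNF4A-AS1, -0.20 to 0.18 for AL132772.1 and -0.16 to 0.66 for MIR3646.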

Other observations

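CEBPA and CEBPB have transcripts of like GC content, 65.9% and 66.2%, and both were higher in the libraries with more non-unique reads. Their ratio within a library, chosen after the values were seen, was 0.382, 0.223 and 0.392 CEBPA counts per CEBPB count in control replicates 1, 2 and 3. It was 0.41, 0.498 and 0.722 in MTR4 KD replicates 1, 2 and 3. Every MTR4 KD library was above every control library, by 0.335 within the class with more and 0.23 within the class with fewer non-unique reads. CEBPB itself was called lower in MTR4 KD in edgeR's fit with the class (log2 fold change -0.29, adjusted p = 0.0013). The ratio therefore also carries the lower CEBPB level and is not a measure of CEBPA alone. The exact permutation p was 0.1 (two-sided), the smallest that 3 against 3 libraries allow, and 0.4 after adjustment over the 8 shares and log2 ratios computed. The log2 ratio of CEBPA to CEBPD, the third of these stress and differentiation factors on the list, was -0.64, -1.66 and -0.33 in the control and -0.57, -0.37 and 0.58 in the MTR4 KD replicates, with overlapping groups and an exact permutation p = 0.3 (adjusted p = 0.6).

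Of the mesenchymal markers 0 of 4 tested genes passed with condition alone in edgeR's test, and 1 did at an unadjusted p-value under 0.05. The 2 with the highest mean count were COL1A1, at 3.73, 4.83 and 4.39 CPM in the control and 3.18, 2.56 and 6.05 CPM in the MTR4 KD replicates, and PDGFRB, at 2.61 to 2.86 CPM in the control and 2.35 to 3.64 CPM in the MTR4 KD libraries. DESeq2 called 0 of the 4. Of the 2 tested blood and endothelial markers 0 passed by edgeR's test, 1 had an unadjusted p-value under 0.05 and DESeq2 called 1, CD14, at 0.908, 1.26 and 1.41 CPM in the control and 0.359, 0.674 and 0.375 CPM in the MTR4 KD replicates.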
